A study of Arabidopsis thaliana with 18 samples.

Results

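Whether sant-null plants respond to a short heat exposure by a different amount than the wild type was asked of every gene as an interaction. Whole Arabidopsis thaliana seedlings, 7 days old and grown on half-strength MS plates with a day length of 16 h, were kept at 22 °C or held at 37 °C for 1 h before RNA sequencing. Of the 18 libraries in 6 groups of 3, the 12 libraries of 4 groups entered the interaction: Col-0 at 22 °C, Col-0 at 37 °C, sant-null at 22 °C and sant-null at 37 °C. Col-0 is the laboratory wild type, and sant-null is a quadruple mutant of SANT1/2/3/4, which encode SANT domain proteins. The other 2 groups, hda6 at 22 °C and at 37 °C, come from an EMS-induced mutant line of the histone deacetylase gene HDA6 and entered no test of the interaction. The interaction of a gene is the log2 fold change of sant-null against Col-0 at 37 °C minus that at 22 °C, which equals the log2 heat response in sant-null minus that in Col-0. It was formed from the authors' deposited comparison tables, whose 2 sets of libraries do not overlap, for 21392 of the 32548 genes of the expression table. Members are all genes with an adjusted p in both tables, and no measured direction chose them. The files hold 1 expression value per group and no value per library, so spread among replicates is known only through the deposited standard errors (3 libraries per group). Nothing in the labels tells if replicate libraries stem from separate sowings; the p-values here therefore reflect only library-to-library spread, possibly technical. Depth, as the sum over genes of the authors' mean normalized count per library, was 20.8 M at 22 °C and 21.5 M at 37 °C, where M stands for mega.

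In plants, heat unfolds proteins and releases heat shock transcription factors, which bind heat shock elements in promoters and switch on chaperone genes within minutes. Small heat shock proteins hold unfolded proteins, HSP70 and HSP90 chaperones refold them, and the disaggregase HSP101 pulls aggregates apart. HSFA2 and HSFA7B are heat-induced members of the factor family that sustain the response, and histone deacetylases such as HDA6 remove acetyl groups from histones, which is linked to gene silencing.

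At an adjusted p under 0.05 (Wald test on the difference, Benjamini-Hochberg over the 21392 genes), 197 genes had an interaction (0.921% of those tested). Of these, 117 genes (0.547%) were higher, meaning a more positive heat response in sant-null, and 80 (0.374%) were lower. Without adjustment, 1772 genes had a p under 0.05. The balance of the directions depended on the zero point. With each table shifted onto the scale of the authors' FPKM values (fragments scaled by gene length and by library depth), a relative shift of 0.05 on the log2 scale, 75 genes were higher and 119 lower, and higher genes made up 38.7% of the calls in place of 59.4%. Centred on the median of the 11865 genes with an FPKM of at least 1 in all 4 groups, which was 0.03, the counts were 78 and 101. Most called interactions were small: the median was 0.40 among the higher genes and -0.61 among the lower, and 26 and 16 genes reached 2-fold.

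A called interaction could come from either temperature, and the authors' deposited tables show which. Among the 117 higher genes, 53 were called lower in sant-null than in Col-0 at 22 °C and not called at 37 °C. A further 34 were called higher at 37 °C and not called at 22 °C, and 14 were called lower at 22 °C and higher at 37 °C. The remaining higher genes had the same call at both temperatures, 12 lower and 4 higher. Over all genes, those tables called 8.98% of 23342 genes lower and 8.82% higher at 22 °C, and 4.05% of 21736 genes lower and 4.72% higher at 37 °C. The larger of the 2 effects was the one at 22 °C for 73 of the 117 higher genes and for 33 of the 80 lower genes. Among the 80 lower genes, 29 were called higher at 22 °C only and 29 were called lower at 37 °C only. Both groups of calls thus hold genes that differed before heat and genes that differed after it, which the plot of the effects at the 2 temperatures separates.

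**Figure D1:**
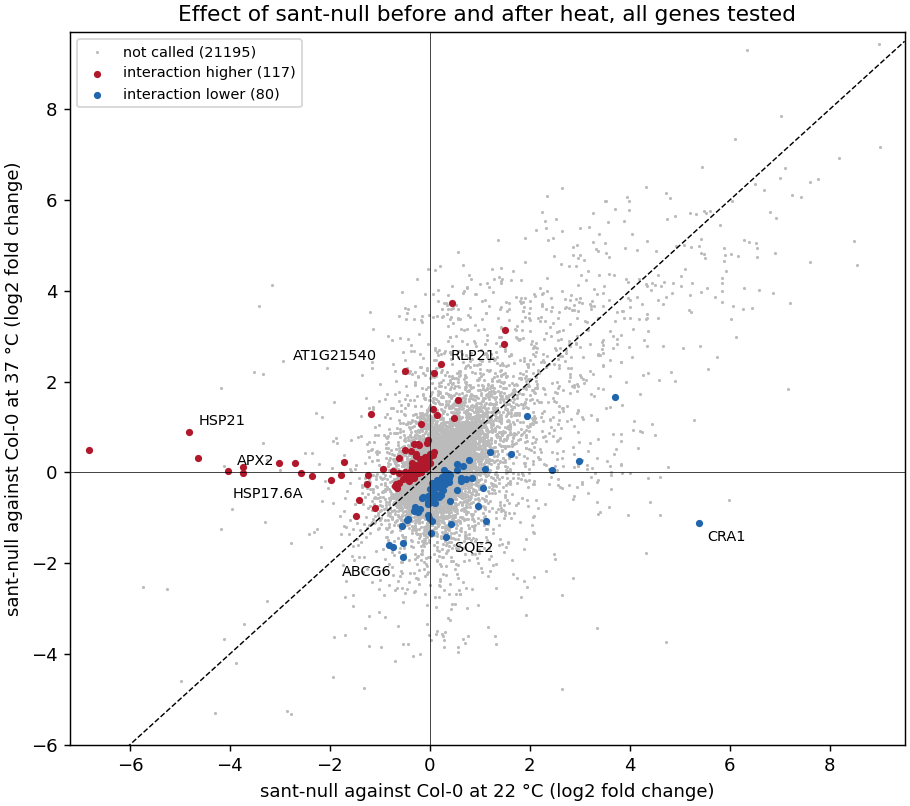
Log2 fold change of sant-null against Col-0 at 22 °C (x axis) and 37 °C (y axis) in the authors' deposited tables for the 21392 genes tested, with the 117 genes with a higher interaction in red and the 80 with a lower one in blue. The dashed line marks equal effects; HSP21 and APX2 lie far to the left near or above 0 on the y axis, CRA1 lies far to the right, and the red point at the left edge is AT1G71000, listed at 0 in sant-null at 22 °C, whose position on the x axis is therefore not a measured fold.

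Small heat shock protein genes held the most positive interactions. Of 18 such genes tested, 9 were called higher and none lower, beside 0.547% and 0.374% of all genes tested. Their median interaction was 1.36 against 0.01 over all genes tested. In the authors' deposited tables, 11 of the 18 were called lower and 2 higher in sant-null at 22 °C. At 37 °C, 6 were called higher and 1 lower. The shares over all genes were 8.98% lower and 8.82% higher at 22 °C, and 4.05% and 4.72% at 37 °C. Levels are given as the authors' FPKM of a group, with Col-0 before sant-null. In Col-0, heat changes on this scale stood a median of 1.01 log2 units below those of the authors' deposited table. A modest fall in FPKM with heat is therefore not read as a fall of the transcript. HSP21 (AT4G27670), the chloroplast small heat shock protein, was at 2.05 and 0.0770 before heat and at 1045 and 1996 after it. Sant-null was thus the lower genotype before heat and the higher one after it, and the interaction was 5.70 ± 0.54 (SE; adjusted p = 9.7e-22). In the authors' deposited tables its effect was -4.81 at 22 °C and 0.89 at 37 °C, both called. In hda6, HSP21 was at an FPKM of 0.0302 before heat and 1377 after it. With 1 added to each FPKM value, the sant-null interaction of HSP21 was 2.43.

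HSP22.0 (AT4G10250), the endoplasmic reticulum member, crossed over in the same way. Its FPKM was 1.92 (Col-0) and 0.0819 (sant-null) before heat, and 1824 and 2342 after it, with an interaction of 4.95 ± 0.52 (adjusted p = 8.1e-18). HSP26.5 (AT1G52560) was at 1.25 and 0.162 before heat and at 728 and 864 after it, with an interaction of 3.23 ± 0.45. HSP17.6II (AT5G12020), a cytosolic class II gene, was at 3.15 and 1.02 before heat and at 2326 and 2793 after it, with an interaction of 1.94 ± 0.25. HSP21 and these 3 genes were called lower at 22 °C and higher at 37 °C in the authors' deposited tables.

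Other called members differed at 22 °C while the heated levels were close. HSP17.6A (AT5G12030), also of class II, was at 2.41 (Col-0) and 0.194 (sant-null) FPKM before heat, and at 2497 and 2554 after it. Its interaction of 3.72 ± 0.41 rested on an effect of -3.73 at 22 °C and of -0.01 at 37 °C in the authors' deposited tables. The mitochondrial gene HSP23.6 (AT4G25200) was at 2.77 and 0.222 before heat and at 2717 and 3055 after it, with an interaction of 3.86 ± 0.79. Adding 1 to each FPKM value gave interactions of 1.55 for HSP17.6A and 1.79 for HSP23.6. Among class I cytosolic genes, AT1G59860, AT1G07400 (HSP17.8) and AT1G53540 (HSP17.6C) had interactions of 2.56 ± 0.26, 2.28 ± 0.22 and 0.78 ± 0.19. The class I gene HSP17.8 reached the highest heated FPKM of the 9, 4589 in Col-0 and 4509 in sant-null, from 4.71 and 0.982. AT1G54050, annotated as an HSP20-like chaperone and not on the list, had an interaction of 1.01 ± 0.18.

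Not every small heat shock gene took part. HSP18.2 (AT5G59720), another class I gene, was at 4.39 in Col-0 and 4.63 in sant-null at 22 °C and at 2554 and 3106 at 37 °C, and its interaction of 0.25 ± 0.16 did not pass (adjusted p = 0.779). HSP23.5 (AT5G51440), the second mitochondrial gene, had the opposite sign, -0.43 ± 0.16, and did not pass either (adjusted p = 0.263). HSP17.4 (AT3G46230) had a large estimate with a large error, 4.24 ± 1.23 (adjusted p = 0.0567), from an FPKM of 0.371 and 0.0230 at 22 °C. Class I genes are similar in sequence, and the sources used here do not say how ambiguous reads and strand were treated, so values of similar or overlapping genes are uncertain.

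Among 30 large chaperones and cofactors, 3 were called higher and none lower, beside 0.547% and 0.374% of all genes. The median interaction of the 30 was 0.07. HSP70B (AT1G16030), a strongly heat-inducible cytosolic HSP70, stood at 4.01 FPKM in wild-type and 1.09 in mutant seedlings at 22 °C, and at 2693 and 2489 at 37 °C. Its interaction was 1.81 ± 0.14 (adjusted p = 8.3e-32), the smallest adjusted p among the named genes. HSP101 (AT1G74310) was at 5.09 and 2.27 before heat and at 2594 and 2238 after it, with an interaction of 1.00 ± 0.11. It was lower in sant-null at both temperatures in the authors' deposited tables, by -1.25 at 22 °C and -0.26 at 37 °C, so that the mutant kept a lower level after heat while its fold increase was larger. HSP90.1 (AT5G52640), the heat-inducible cytosolic HSP90, had an interaction of 0.41 ± 0.11 (adjusted p = 0.0346), which did not pass on the FPKM scale (adjusted p = 0.105) or when centred (adjusted p = 0.0807). The constitutive HSC70-1 and HSP90.3 had interactions of 0.06 ± 0.06 and 0.04 ± 0.08. As the authors' deposited tables have it, 19 of the 30 were called lower in sant-null at 22 °C and 15 at 37 °C. The shares over all genes were 8.98% and 4.05%.

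Of 19 heat shock transcription factor genes tested, HSFA2, HSFA7B and HSFB1 were called higher and none lower, beside 0.547% and 0.374% of all genes. The median interaction of the 19 was 0.11. HSFA2 (AT2G26150) was at 1.81 (Col-0) and 0.563 (sant-null) FPKM at 22 °C, and at 1570 and 1554 at 37 °C, with an interaction of 1.71 ± 0.22 (adjusted p = 7.2e-12). HSFA7B (AT3G63350) was at 0.671 and 0.11 before heat and at 468 and 560 after it, with an interaction of 2.91 ± 0.56. With 1 added to each FPKM value, the interaction of HSFA7B was 0.85. HSFB1 (AT4G36990, symbol HSF4 in the annotation), a class B factor that represses heat shock genes, was at 12.1 and 8.96 before heat and at 659 and 611 after it, with an interaction of 0.38 ± 0.08. The master regulators HSFA1A, HSFA1B, HSFA1D and HSFA1E, which act upstream, had interactions of 0.42 ± 0.46, 0.10 ± 0.28, -0.11 ± 0.18 and -0.40 ± 0.25, none called. Heat-induced HSFA7A, at 2.35 and 2.29 before heat and 317 and 307 after it, had an interaction of 0.05 ± 0.20.

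Several other heat-induced genes joined them. APX2 (AT3G09640), a cytosolic ascorbate peroxidase, was at 0.368 (Col-0) and 0.0239 (sant-null) FPKM at 22 °C, and at 359 and 379 at 37 °C, with an interaction of 4.08 ± 1.01 (adjusted p = 0.00971). With 1 added to each FPKM value, the interaction of APX2 was 0.50. APX2 was the 1 gene called among 16 of oxidative stress. AT5G07330, annotated as an NFU1 iron-sulfur cluster protein, was at 0.323 in Col-0 and 0.151 in sant-null at 22 °C and at 87.8 and 220 at 37 °C, with an interaction of 2.46 ± 0.68. In the authors' deposited tables, its effect of -1.18 ± 0.68 at 22 °C was not called and that of 1.28 ± 0.05 at 37 °C was. AT1G71000, annotated as a DnaJ-domain chaperone, was listed at 0 in sant-null and at 0.417 in Col-0 at 22 °C, and was at 327 and 226 at 37 °C, so no fold is given for it.

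**Figure D2:**
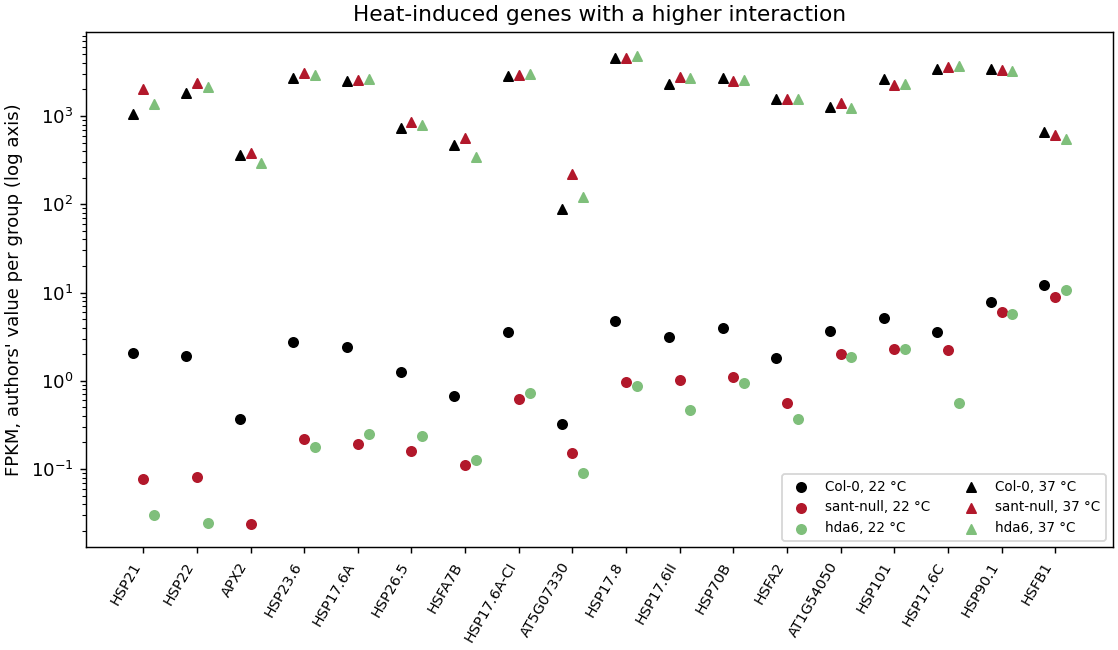
The authors' FPKM per group (log axis) for 18 named genes with a higher interaction whose FPKM was at least 32-fold higher in heated than in unheated hda6, ordered by interaction; circles are 22 °C and triangles 37 °C, and there is no error because each group has a single value. Col-0 lies above sant-null at 22 °C in every gene shown, and the triangles of the 2 genotypes lie close together in most genes, HSP21 and AT5G07330 being the furthest apart; APX2 in hda6 at 22 °C is listed at 0 and cannot be drawn.

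To place these calls within the whole heat response without using the 12 libraries of the test, genes were sorted by their change with heat in the hda6 libraries. Of 101 genes whose FPKM was at least 32-fold higher in heated than unheated hda6 (pseudocount 0.1), 21 were called higher (20.8%, against 0.547% of all genes) and 4 lower (3.96%, against 0.374%). The median interaction of the 101 was 0.21. Genes with a smaller increase had smaller shares of calls, which were still above those of all genes in both directions. At 8 to 32-fold, 3 of 130 were higher and 3 lower (2.31% each). At 2 to 8-fold, 6 of 353 were higher (1.70%) and 5 lower (1.42%). Of 7726 genes within 2-fold, 56 were higher and 30 lower, and of 7829 genes with a 2 to 8-fold lower FPKM in heated hda6, 29 and 33. None of the 478 genes with an FPKM over 8-fold lower there was called, and of 4775 genes under an FPKM of 1 in hda6 2 were higher and 5 lower. Within the authors' deposited tables, 19 of the 21 genes were called lower in sant-null at 22 °C, and at 37 °C 8 were called higher and 3 lower. The interaction that picked the 21 is made of these same effects, so these counts follow in part from the selection. Of all 101 genes of the class, 30 were called lower and 7 higher at 22 °C, and 20 lower and 27 higher at 37 °C. Over all genes the shares were 8.98% lower and 8.82% higher at 22 °C, and 4.05% and 4.72% at 37 °C. These classes rest on FPKM, which places heat changes lower than the deposited tables do: the authors' deposited table of heat in Col-0 stood a median of 1.01 log2 units above the FPKM ratio, and the deposited tables gave 1.06 for hda6. With the hda6 changes shifted by that amount, a setting chosen after seeing the data, 23 of 159 genes at least 32-fold higher were called higher (14.5%) and 6 lower, and 67 and 44 of 12494 genes within 2-fold. With the 101 genes left out, 93 genes were still called higher and 75 lower. The 4 lower genes were AT1G06030, AT5G13200, AT1G11270 and AT5G12110, with interactions of -2.74, -0.90, -1.02 and -0.51, of which the last 2 were named after their values were seen.

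**Figure D3:**
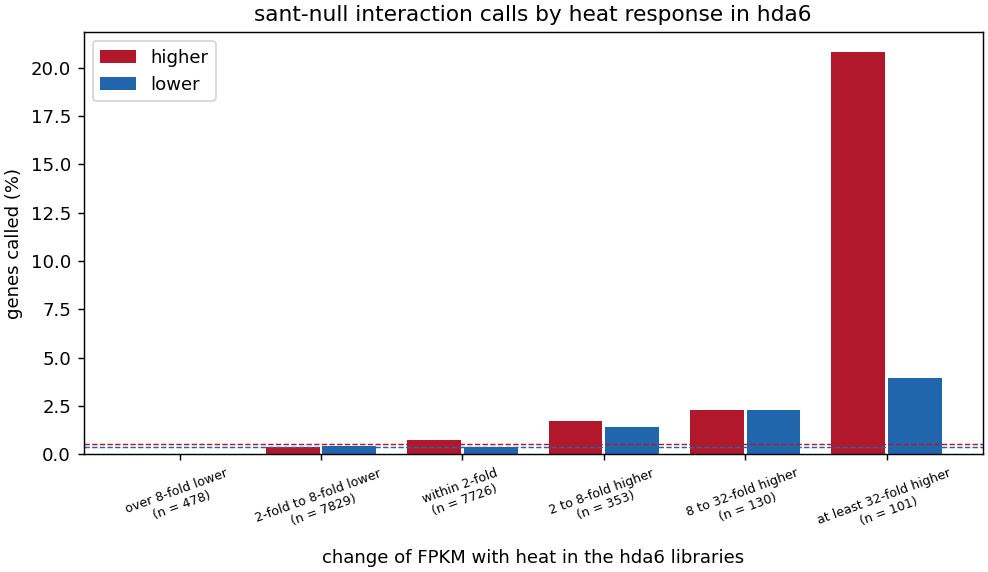
Percentage of genes (y axis) with a higher (red) or lower (blue) sant-null interaction, by the change of FPKM with heat in the hda6 libraries (x axis); dashed lines mark the percentages over all genes, 0.547% and 0.374%. The bar for genes at least 32-fold higher reaches 20.8% for the higher direction, and every other bar is below 4%.

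The difference at 22 °C was small beside the heated level. For the 21 genes, the unheated median FPKM was 2.41 (Col-0), 0.563 (sant-null) and 0.469 (hda6). The level of Col-0 at 22 °C above that of sant-null at 22 °C was small against heated Col-0 on the FPKM scale. Its median was 0.101% of the heated Col-0 level, with quartiles of 0.0889% and 0.127%, and it was above 0 in 20 of the 21. Taken above hda6 at 22 °C instead, the median was 0.108%, and it was above 0 in 21 of the 21. For the 76 genes of the same heat class that were not called, the median was 0.0162% with quartiles of -0.292% and 0.143%. Of these, 40 were above 0. Over all 101 genes of the class, 60 were above 0 against sant-null and 73 against hda6. These contrasts are partly fixed by selection. A low sant-null level at 22 °C raises the interaction for which the 21 were called. A low hda6 level at 22 °C raises the fold that set the class. Because no value per library was used here, whether a single Col-0 library at 22 °C carries these levels cannot be told, and whether a trace of heated RNA or reads in the unheated Col-0 libraries has a part in the result was not tested. In bulk seedlings, fewer cells of a type and less RNA per cell cannot be told apart.

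The hda6 interaction shares all 6 Col-0 libraries with the sant-null one, so its values are given beside them with no comparison. It was called for 1148 of 20598 genes (5.57%). For HSP21 it was 6.43 ± 0.77 beside 5.70 ± 0.54 in sant-null, for HSP70B 2.06 ± 0.15 beside 1.81 ± 0.14, and for HSFA2 2.31 ± 0.24 beside 1.71 ± 0.22. HSP18.2, not called in sant-null, had 1.15 ± 0.18 in hda6. AT1G21540 had -0.09 ± 0.31 in hda6 beside 2.75 ± 0.25, and RLP21 had 0.50 ± 0.28 beside 2.17 ± 0.25.

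Promoters of the called heat genes were searched for a heat shock element of 3 alternating units, GAANNTTCNNGAA or its other phase TTCNNGAANNTTC, in the 250 bases upstream of each gene start, on both strands. Overlapping matches were counted within a promoter and the promoter once. The element was found in 91 of 21391 promoters (0.425%), in 4 of the 117 higher genes (3.42%) and in 0 of the 80 lower genes. Among the 101 strongly heat-induced genes it was found in 9 (8.91%), in 4 of the 21 called higher (19.0%) and in 5 of the 76 not called (6.58%). The 4 genes were HSFA2, HSFA7B, AT1G53540 and AT1G71000. For HSFA7B and AT1G71000 the window overlaps no other annotated gene, and the 200 bases upstream of the gene start are shown in the gene's direction, from the RefSeq annotation of TAIR10.1, with bases that match the element in capitals.
HSFA7B, chr3:23399036-23399235, plus strand: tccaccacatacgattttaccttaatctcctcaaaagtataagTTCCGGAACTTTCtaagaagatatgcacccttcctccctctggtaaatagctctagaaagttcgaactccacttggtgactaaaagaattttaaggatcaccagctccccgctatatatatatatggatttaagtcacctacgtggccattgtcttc
AT1G71000, chr1:26770178-26770377, minus strand: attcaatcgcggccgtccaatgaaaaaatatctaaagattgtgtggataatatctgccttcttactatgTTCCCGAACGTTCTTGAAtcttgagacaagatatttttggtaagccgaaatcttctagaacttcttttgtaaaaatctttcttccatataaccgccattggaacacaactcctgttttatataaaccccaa
HSFA7B has 1 match and AT1G71000 has 2 that overlap. A match of letters is a description and says nothing of binding, and most called genes had no match to these letters in this window.

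Neighbouring genes were both called in 5 pairs, a count given as a description, with no share over all neighbouring pairs beside it. HSP21 and AT4G27680, a P-loop nucleoside triphosphate hydrolase, lie on opposite strands of chromosome 4 with 1047 bases between them. AT4G27680 was at 8.14 (Col-0) and 7.00 (sant-null) FPKM at 22 °C and at 37.1 and 59.4 at 37 °C, and its interaction was 0.94 ± 0.10. HSP17.6II and HSP17.6A lie side by side on chromosome 5 with 845 bases between them. HSFB1 and its neighbour AT4G36980 were called in opposite directions, at 0.38 and -0.50.

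Among higher genes outside the heat class, several differed at 37 °C more than at 22 °C. AT1G21540, an AMP-dependent synthetase and ligase family gene, was at 1.53 (Col-0) and 1.14 (sant-null) FPKM at 22 °C, and at 0.738 and 3.59 at 37 °C. Its interaction was 2.75 ± 0.25 (adjusted p = 1.4e-24), and the change with heat in Col-0 was -0.05 ± 0.21 in the authors' deposited table. RLP21 (AT2G25470), a receptor-like protein gene, was at 0.526 and 0.651 before heat and at 2.55 and 13.8 after it, with an interaction of 2.17 ± 0.25. GAUT12 (AT5G54690), a xylan synthesis gene picked out after its values were seen, was at 0.846 and 0.95 before heat and at 3.34 and 15.8 after it, with an interaction of 2.12 ± 0.24. The protein kinase gene AT1G79640 had 1.34 ± 0.19, from 1.23 and 1.36 before heat and 2.63 and 7.14 after it.

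At lower folds, SIP2 (AT3G57520), a raffinose-cleaving galactosidase gene, was at 12.3 in Col-0 and 11.3 in sant-null at 22 °C and at 5.91 and 9.18 at 37 °C, with an interaction of 0.81 ± 0.11. It was called lower at 22 °C and higher at 37 °C in the authors' deposited tables, as were the oligopeptide transporter gene OPT1 (interaction 0.98 ± 0.18) and ACS7, which encodes an enzyme of ethylene synthesis (0.92 ± 0.21). FER1 (AT5G01600), an iron-storing ferritin gene of the chloroplast, was lower in sant-null at both temperatures, at an FPKM of 112 against 42.5 before heat and 69.6 against 36.8 after it. Its interaction of 0.52 ± 0.07 (adjusted p = 1.4e-10) was a narrowing of that gap.

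**Figure D4:**
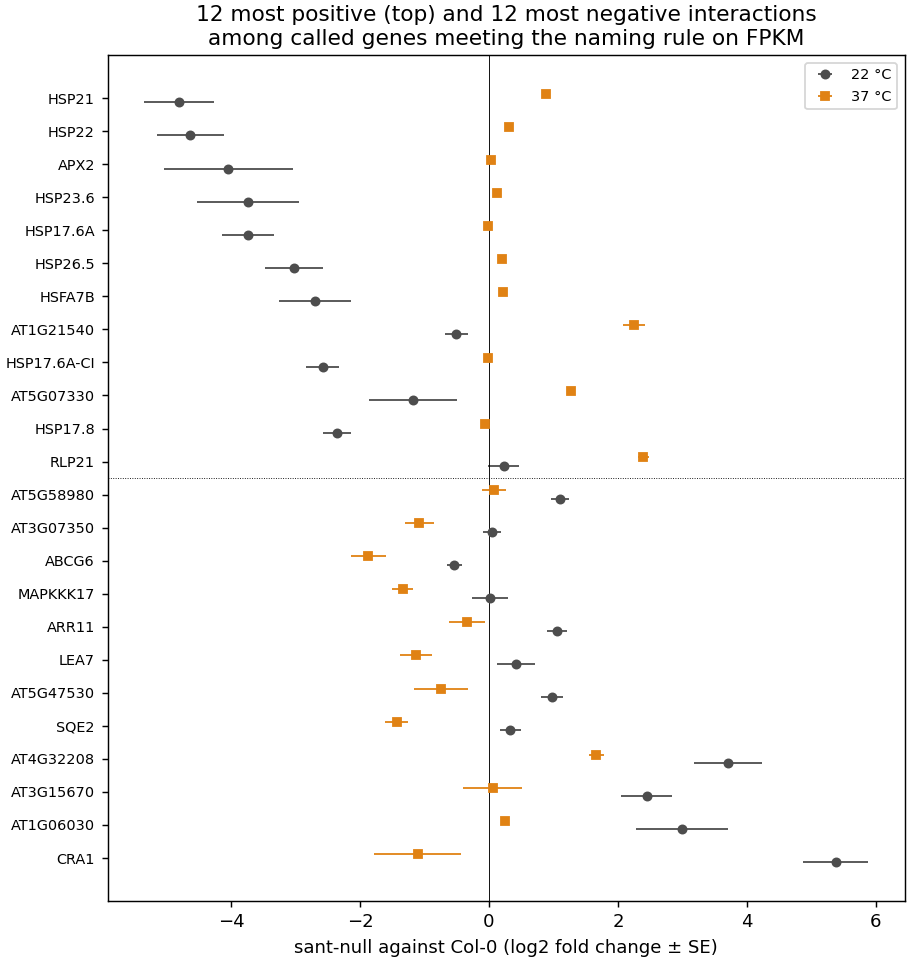
Log2 fold change of sant-null against Col-0 with its standard error (x axis) at 22 °C (grey circles) and 37 °C (orange squares) in the authors' deposited tables, for the 12 most positive and 12 most negative interactions among called genes with an FPKM above 0 in all 4 groups and of at least 1 in one of them. In the heat shock genes of the upper block the 22 °C effect is far below 0 and the 37 °C effect near it; AT1G21540 and RLP21 show the reverse, and SQE2 and MAPKKK17 differ mainly at 37 °C.

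The most negative interaction was that of CRA1 (AT5G44120), a seed storage cruciferin gene, at -6.49 ± 0.85 (adjusted p = 2.8e-11). Its FPKM was 0.0361 (Col-0) and 1.67 (sant-null) at 22 °C, and 0.178 and 0.0845 at 37 °C, so 1 group of the 4 stood above an FPKM of 1. Of 12 seed genes 4 were tested, all with a negative interaction, and CRA1 alone was called. The summed FPKM of the 12 was 0.225 in Col-0 and 2.59 in sant-null at 22 °C and 0.514 and 0.303 at 37 °C, and SESA1 and SESA3 were at 0 in all 4 groups. The late embryogenesis genes AT3G15670 and LEA7 (AT1G52690) were also lower, at -2.39 ± 0.60 and -1.55 ± 0.39, the first from a higher level in sant-null at 22 °C and the second from a lower one at 37 °C. The part of seed tissue in these values was not tested.

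Other lower genes differed at 37 °C. SQE2 (AT2G22830), a squalene epoxidase of sterol synthesis, was at 1.44 (Col-0) and 1.93 (sant-null) FPKM at 22 °C and at 2.09 and 0.798 at 37 °C, with an interaction of -1.76 ± 0.25 (adjusted p = 1.1e-09). MAPKKK17 (AT2G32510), a kinase of abscisic acid signalling, was at 0.735 and 0.794 before heat and at 3.79 and 1.54 after it, with an interaction of -1.36 ± 0.33. AT5G13200, a GRAM domain gene, was at 1.57 and 1.61 before heat and at 90.5 and 48.4 after it, with an interaction of -0.90 ± 0.22. In the authors' deposited tables these 3 genes were not called at 22 °C and were called lower in sant-null at 37 °C.

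ABCG6 (AT5G13580), a transporter needed for suberin, was lower in sant-null at both temperatures, at 3.51 against 2.57 before heat and 1.19 against 0.333 after it, with an interaction of -1.34 ± 0.29. ARR11 (AT1G67710), a cytokinin response regulator, was called in the authors' deposited tables before heat and not after it, with effects of 1.06 and -0.34, and had an interaction of -1.40 ± 0.31. AT4G32208, annotated as an HSP70 family gene, was higher in sant-null at both temperatures, and had an interaction of -2.05 ± 0.54, with an FPKM of 0.134 in Col-0 at 22 °C. With a pseudocount of 1 on the FPKM values it was 0.25, as adding 1 to 0.134 (Col-0) and 1.81 (sant-null) draws the 22 °C levels together. Other named lower genes were AT1G06030, AT5G47530, AT3G07350, AT5G58980, AT1G74300, AT1G14970, the zinc transporter gene ZIP4, LNK2 of the circadian clock and PIF4, which encodes a growth-promoting transcription factor, with interactions between -2.74 and -0.30. For AT1G06030, at an FPKM of 0.0560 in Col-0 at 22 °C, adding 1 to each FPKM value gave an interaction of -0.17. AT3G41768, an 18S ribosomal RNA gene, was also called, at -0.77 ± 0.18, in libraries made from messenger RNA. LNK2 was the 1 gene called of 18 clock genes and PIF4 the 1 of 20 auxin and warmth genes.

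Families that recurred among the called genes were followed over all their members; they were chosen after values were seen and are given with no test of the family. Over all genes tested, 0.547% had a higher and 0.374% a lower interaction. Of 12 genes induced by low oxygen, 4 were called lower and none higher, with a median interaction of -0.34. ADH1, the alcohol dehydrogenase of fermentation, was at 19.2 (Col-0) and 29.8 (sant-null) FPKM at 22 °C and at 25.4 and 29.6 at 37 °C, with an interaction of -0.37 ± 0.09. PDC1 (AT4G33070), LBD41 and FTM1 had interactions of -0.51 ± 0.11, -0.74 ± 0.15 and -0.46 ± 0.11. From the authors' deposited tables, 9 of the 12 were called higher in sant-null at 22 °C and 2 at 37 °C, beside 8.82% and 4.72% of all genes.

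Of 12 phosphate starvation genes 3 were called lower, beside 0.374% of all genes, and the median interaction of the 12 was -0.19. The 3 called were the phosphatase gene PEPC1 (-0.78 ± 0.20), the pyrophosphatase gene PS2 (-0.61 ± 0.16) and the galactolipid synthase gene MGDC (-0.92 ± 0.25). PEPC1 was at 7.12 (Col-0) and 4.33 (sant-null) FPKM at 22 °C and at 6.48 and 2.21 at 37 °C. By the authors' deposited tables, 11 of the 12 were called lower in sant-null at each temperature, beside 8.98% of all genes at 22 °C and 4.05% at 37 °C. Of 3 APS reductase genes, which reduce sulfate for cysteine synthesis, APR1 and APR3 were called lower, at -0.60 ± 0.08 and -0.58 ± 0.09. APR3 was at 43.3 and 33.9 before heat and at 17.7 and 9.03 after it.

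In the other direction, where 0.547% of all genes were called, 2 of 4 ferritin genes were called higher. These were FER1 and FER3 (0.36 ± 0.10), of which 1 passed on the FPKM scale. Of 13 PIP aquaporin genes, which encode water channels of the plasma membrane, PIP1B, PIP1;5 and PIP3 were called higher and none lower, and 2 passed on the FPKM scale. PIP1;5 was at 116 (Col-0) and 86.5 (sant-null) FPKM at 22 °C and at 77.7 and 73.9 at 37 °C, with an interaction of 0.39 ± 0.07. SQE2 was the 1 gene called of 6 squalene epoxidases.

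**Figure D5:**
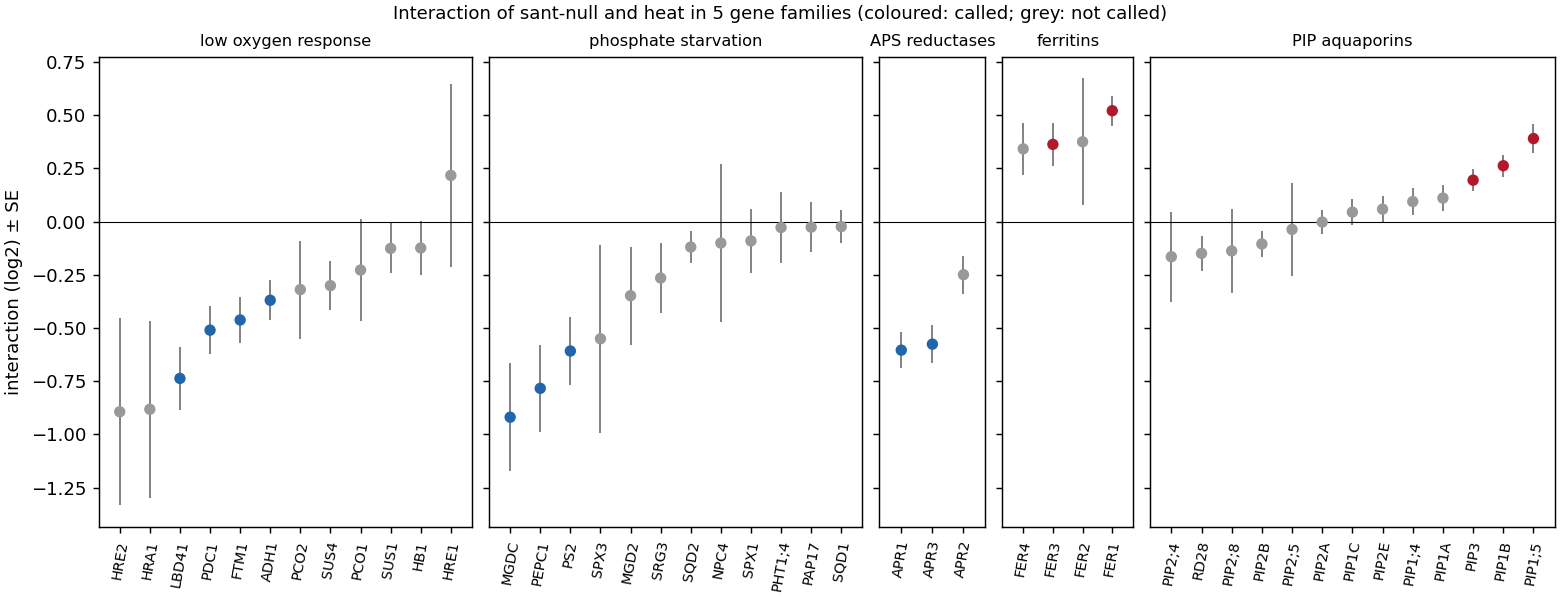
Interaction with its standard error (y axis, log2) of each tested member (x axis) of 5 gene families, with called genes in red (higher) or blue (lower) and the others in grey. The low oxygen and phosphate starvation genes lie mostly below 0, with 4 and 3 called; the 4 ferritins lie above 0, with 2 called, and the aquaporins lie on both sides.

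Other lists held no call: 7 DREB and MBF1 stress regulators, 20 endoplasmic reticulum folding genes, 19 abscisic acid and cold genes, 15 flowering time genes, 15 defence genes and 17 histone deacetylase genes by the Wald test. On the FPKM scale 1 of the 20 endoplasmic reticulum folding genes was called lower. At an unadjusted p under 0.05 of the Wald test, these lists held 1, 2, 5, 0, 1 and 1 genes in that order. The photosynthesis list held 6, the root list 1 and the floral list 0. Over all genes it was 1772 of 21392. HDA6 (AT5G63110) had an interaction of 0.05 ± 0.15, from FPKM values of 6.83 (Col-0) and 6.94 (sant-null) at 22 °C and 3.96 and 4.03 at 37 °C. No gene carries the names SANT1 to SANT4 in the annotation used, so the mutated genes were not analysed here. None of 25 photosynthesis genes tested was called. The summed FPKM of the 26 listed was 54467 in Col-0 and 52290 in sant-null before heat and 40600 and 39744 after it. As FPKM places heat changes lower than the deposited tables do, these sums do not give the direction of change with heat. Of 14 root genes tested none was called, and the 15 listed had sums of 76.6 and 101.6 before heat and 22.5 and 27.7 after it, and of 5 floral genes tested none, where the 6 listed had sums of 3.57 and 2.89, then 2.57 and 1.96. Precision followed the level: the median standard error was 0.15 for the 11865 genes with an FPKM of at least 1 in all 4 groups against 0.24 over all genes tested, and of the 4262 genes under 1 in all of them 3 were called. With a t distribution of 8 degrees of freedom in place of the normal, 10 genes were called higher and none lower: HSP21, HSP22.0, HSP17.6A, AT1G59860, AT1G07400, HSP70B, HSP101, AT1G21540, AT4G27680 and GAUT12.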

How the data were processed

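RNA from 3 seedling libraries in each of 6 groups was sequenced from paired ends. The submitters' processing notes name DESeq2 1.30.1, featureCounts 2.0.1, HISAT2 2.2.1, CASAVA and the TAIR10 build; for roles, order and settings, the sources used here give nothing. The authors deposited FPKM as 1 value per group, so FPKM carries no SD. The authors also deposited comparison tables, of which those of sant-null against Col-0 at 22 °C and 37 °C gave the interaction. Each deposited table holds a baseMean signal, a log2 fold change with its standard error, a Wald score, a p-value and an adjusted p. The deposited score equalled the fold change over its error to within 6.3e-07.

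The interaction is the difference of the deposited log2 fold changes; its squared error is the sum of both squared errors. It was tested against the normal distribution, two-sided, with Benjamini-Hochberg adjustment over 21392 genes (Python 3.11.15, scipy 1.17.1, statsmodels 0.14.6), and the script was checked on simulated data. The normal reference assumes well-known errors, which 3 libraries per group limit.

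Named genes were the 12 most positive and 12 most negative called genes with an FPKM above 0 in all 4 groups and of at least 1 in one; the 8 most positive, 8 most negative and 6 of largest score among those with at least 1 in all; called genes of 16 lists with 285 entries; up to 4 called genes listed at 0; and HDA6. Members, lists and this rule were chosen with earlier results of these data known, and 6 further families after values were seen. Alternatives changed the scale, centring, filter, reference distribution, threshold and pseudocount. Genes were joined by identifier to RefSeq's annotation of TAIR10.1 for names, neighbours and promoters; the deposited files hold no coordinates.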

Additional observations from a re-analysis of the deposited data

Results flagged for a closer look

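The heat response of sant-null and Col-0 differed, by the test of the interaction itself, in 117 genes with a higher and 80 with a lower value. Among the named genes, 11 had opposite calls at the 2 temperatures in the authors' deposited tables, lower in sant-null at 22 °C and higher at 37 °C, beside a called interaction; for AT1G71000, listed at 0 in sant-null at 22 °C, no value is given. On the log2 scale, the interaction was 5.70 for HSP21, 4.95 for HSP22.0, 3.23 for HSP26.5 (AT1G52560), 2.91 for HSFA7B and 1.94 for HSP17.6II among heat shock genes. The same reversal held for AT1G21540, with an interaction of 2.75, OPT1 with 0.98, AT4G27680 with 0.94, ACS7 with 0.92 and SIP2 with 0.81. Over all 197 called genes, 14 reversed from lower to higher and 2 from higher to lower. No group has 4 samples or more, so no sample was tested for standing apart from its group.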

How the results depend on the processing

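No paired analysis was possible because the files hold 1 FPKM value per group and fold changes per comparison, with no value per library; leaving out each replicate in turn was not run for the same reason. On the FPKM scale 75 genes were higher, where 42 higher calls were lost and all 80 lower genes remained; the shift itself moves every interaction down. With the t distribution of 8 degrees of freedom, 10 were higher and 0 lower, and at an adjusted p under 0.01, 71 and 39. Counts stayed within 1.5 times of 117 and 80 with centring, with an FPKM of at least 1 in at least 1 group (123 and 87), with no filter (117 and 79) and without the genes at least 32-fold higher in heated hda6, an alternative chosen after seeing the data (93 and 75). The interaction of AT4G32208 reversed, to 0.25, with a pseudocount of 1 on FPKM, which exceeds its level of 0.134 in Col-0 at 22 °C. With that pseudocount 37 of the 47 called named genes moved by more than their standard error while keeping their sign, and with 0.1 there were 10. A pseudocount draws low levels together. These values also rest on FPKM in place of the deposited fold changes, a relative shift of 0.05 on the log2 scale. The part of each was not tested. Low levels limit the depth of inference: below an FPKM of 1 in all 4 groups 3 of 4262 genes were called.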
